A study of Mus musculus with 6 samples.

Results

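The genes of the platelet-derived growth factor (PDGF) system were examined in cultured mouse skull osteoblasts. The set comprised the 7 genes listed by symbol, which were 4 ligand genes (Pdgfa, Pdgfb, Pdgfc and Pdgfd) and 3 receptor or receptor-like genes (Pdgfra, Pdgfrb and Pdgfrl). All 7 were found among the 17830 genes of the deposited count table, and all 7 passed the filter on low counts that left 13484 genes for testing. Bulk RNA sequencing was performed on 3 control libraries (mOCN-Cre; Ai9) and 3 APPswe libraries (TgAPPswemOCN-Cre; Ai9), and the study compared them to ask how osteoblasts that express APPswe differ from control osteoblasts. Both genotypes carried Ai9, a reporter allele that turns on the red protein tdTomato after Cre has acted, and mOCN-Cre, a knock-in that makes Cre from the osteocalcin gene Bglap. The APPswe mice carried in addition a Cre-dependent transgene for human amyloid precursor protein with the Swedish mutation. The mice of both genotypes were males aged 6 months. Cells grew out of calvarial bone chips in culture, and tdTomato-positive cells were sorted before RNA was extracted. Whether each library came from a separate mouse is not given in the sources used here, so the spread between libraries may be technical.

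PDGFs are secreted dimers that act on 2 receptor tyrosine kinases of mesenchymal cells. The alpha receptor, encoded by Pdgfra, binds the A, B and C chains, and the beta receptor, encoded by Pdgfrb, binds chiefly the B and D chains. The A and B chains are trimmed by proprotein convertases inside the cell, whereas the C and D chains leave it in a latent form and are activated by outside proteases that cut off their CUB domain. In bone, PDGF-BB from osteoclast precursors is known to draw mesenchymal and vascular cells, PDGFRβ marks pericytes and many stromal progenitors, and PDGFRα marks mesenchymal progenitors and fibroblasts.

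The libraries held between 17263757 and 18398392 counts, so that 3 counts, taken as the floor of detection, correspond to between 0.167 and 0.173 CPM (counts relative to the size of the library, here scaled by edgeR's TMM factors). This floor covers counting error only, and every member lay far above it. Control replicate 2 stood apart from the other libraries. Its 4 Y-linked genes summed to 2 counts, against 2257 to 3406 in the other libraries, and Bglap had 1 count, against 115 to 204. The Y-linked counts of this library go against the stated male sex. In the labels its library name carries the letter S, where the names of all the others carry an L, and the labels do not say what these letters mean. Its osteoblast markers summed to 17573 CPM, near the other control libraries. Col1a1, Col1a2 and Spp1, named after their values were seen, held 5705, 5732 and 6092 CPM of that sum. Of the 14 markers, 6 were at or under the floor in this library, against 2 in each other library. The main results are given with and without it. Replicate values below are given in the order 1, 2 and 3. App, the mouse gene, was at 1119 ± 154 CPM in control and 1037 ± 19.2 CPM in APPswe libraries (SD, n = 3 each). It does not check the genotype labels, since no separate count of the human transgene was used here.

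Among the 7 genes, Pdgfra rose and Pdgfd fell in APPswe libraries, while Pdgfrb, Pdgfa, Pdgfb and Pdgfc differed by less than the tests could resolve. Pdgfrl was about 2-fold higher without passing the threshold. A gene was called when its adjusted p in the quasi-likelihood test of edgeR, adjusted over all genes by the Benjamini-Hochberg method, was at most 0.05 and its absolute log2 fold change was at least 1. By this rule 1 of the 7 members was called higher, where 3.74% of all genes tested were, and 1 was called lower, where 3.60% were. For 4 members all APPswe libraries lay on one side of all control libraries (Pdgfra and Pdgfrl above, Pdgfd and Pdgfrb below), which also held for 45.0% of all genes tested. The median log2 fold change of the 7 genes was 0.15, beside -0.0033 over all genes tested. Without control replicate 2 the members called were again Pdgfra, higher, and Pdgfd, lower, and 11.5% of the 13753 genes then tested were called in either direction. In these bulk libraries, fewer cells of a type and less RNA per cell cannot be told apart.

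**Figure D1:**
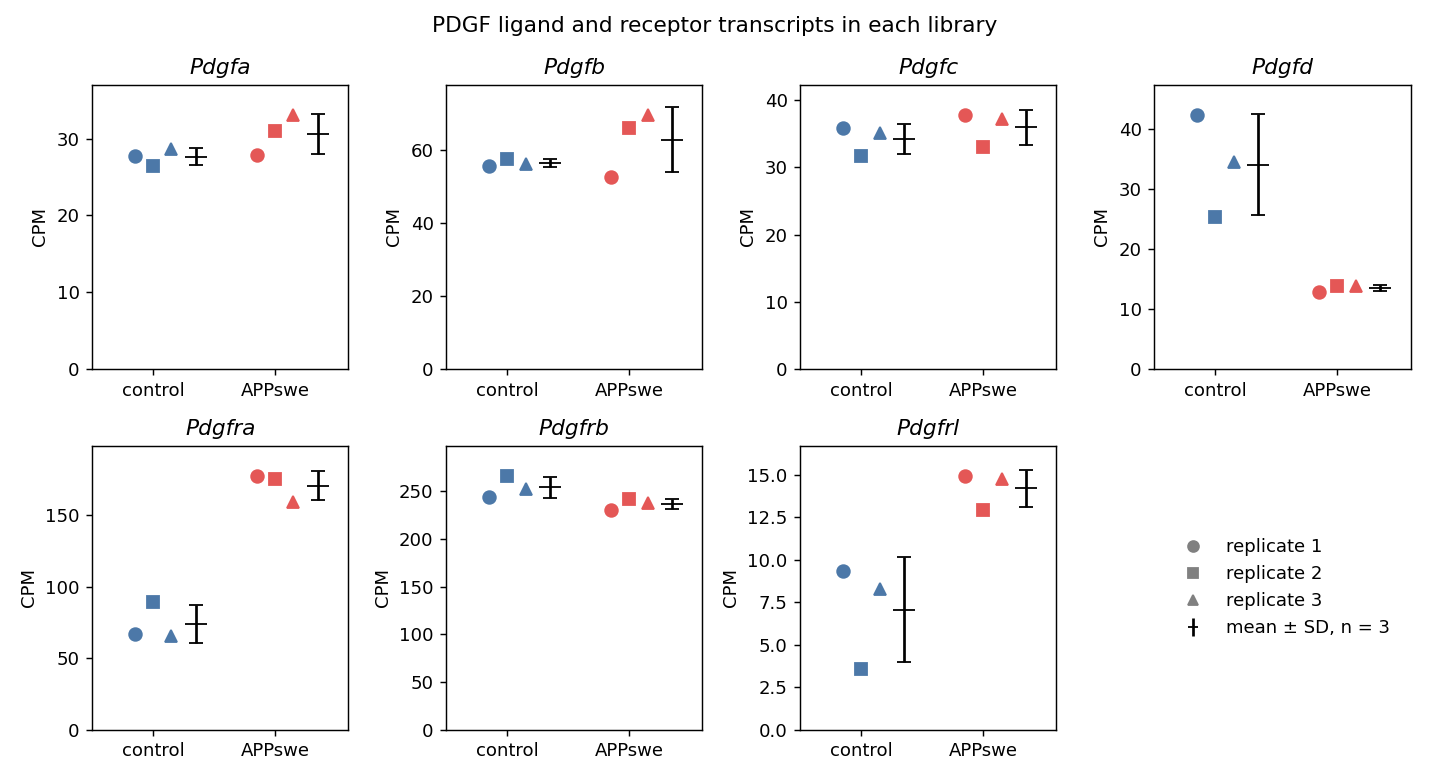
CPM of each PDGF gene in the 3 control (blue) and 3 APPswe (red) libraries, with each marker shape standing for a replicate number and the black bar for the mean ± SD (n = 3). The APPswe points of Pdgfra (159 to 178 CPM) lie above all control points (65.3 to 89.0 CPM), those of Pdgfd (12.9 to 13.9 CPM) lie below all control points (25.4 to 42.3 CPM), and those of Pdgfb overlap with control.

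Pdgfra, the receptor for most PDGF chains and a marker of mesenchymal progenitors, was read 1154, 1584 and 1157 times in the control libraries. In the APPswe libraries it was read 3166, 3156 and 2835 times. The APPswe libraries were all higher than the control libraries, and the highest control value was that of control replicate 2. After normalization Pdgfra was at 73.7 ± 13.3 CPM in control and 171 ± 10.1 CPM in APPswe libraries (SD, n = 3 each). This was a 2.32-fold rise, with a log2 fold change of 1.21 (standard error 0.13, 95% interval 0.89 to 1.54, edgeR adjusted p = 0.00214). Without control replicate 2 the log2 fold change was 1.38 (95% interval 1.21 to 1.54, edgeR adjusted p = 1.38e-07). The difference was similar within each style of library name in the labels, at 1.20 among libraries named with a hyphen (2 control, 1 APPswe) and 1.36 among those named without one (1 control, 2 APPswe), on the log2 CPM scale. Pdgfra overlaps antisense gene models Gm42802 by 456 exonic bases and Gm42803 by 166, and whether the counting used strand is not given in the sources used here.

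Pdgfrb, the receptor for PDGF-B and PDGF-D and a marker of pericytes and stromal cells, was the most abundant member per length. Its counts were 4238, 4735 and 4470 for control and 4118, 4341 and 4233 for APPswe. After normalization the control libraries (245, 266 and 252 CPM) lay narrowly above the APPswe libraries (231, 242 and 238 CPM). The log2 fold change was -0.10 (standard error 0.071, edgeR adjusted p = 0.332), and its 95% interval, from -0.27 to 0.066, includes 0. Without control replicate 2 it was -0.066.

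The balance between the receptors was also read as a ratio of counts within each library, which needs no normalization. There were 0.272, 0.335 and 0.259 Pdgfra counts per Pdgfrb count for control, and 0.769, 0.727 and 0.670 for APPswe. The groups did not overlap, and the ratio was higher by 1.33 on the log2 scale in APPswe libraries. The two-sided exact permutation test gave p = 0.1, the smallest value that 3 libraries against 3 allow, and 0.2 after Benjamini-Hochberg adjustment over the 6 ratios examined. Of the FPKM of the receptor pair (fragments relative to gene length and library size, as the authors computed them), Pdgfra held 19.3 ± 2.10% in control and 37.2 ± 1.48% in APPswe libraries (SD, n = 3 each). The summed FPKM of the pair lay between 57.2 and 64.8 in control and between 73.4 and 76.9 in APPswe libraries.

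Pdgfrl, a receptor-like protein that resembles the outer part of the PDGF receptors and has no kinase domain, was the least abundant member in control libraries. Its counts were 162, 63 and 147 for control and 266, 232 and 262 for APPswe. All APPswe values were higher than all control values, and control replicate 2 was well below the other control libraries. Mean levels were 7.06 ± 3.10 CPM in control and 14.2 ± 1.10 CPM in APPswe libraries (SD, n = 3 each). The log2 fold change was 1.01 with a wide 95% interval from 0.21 to 1.80 (edgeR adjusted p = 0.0731), so Pdgfrl missed the limit on the adjusted p. Without control replicate 2 the opposite limit was missed, with a log2 fold change of 0.69 (95% interval 0.43 to 0.95, edgeR adjusted p = 0.000736). DESeq2 called it higher with all libraries (log2 fold change 1.00, adjusted p = 0.0192).

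Pdgfd, the ligand for the beta receptor that is secreted in latent form, was read 732, 452 and 610 times in the control libraries. In the APPswe libraries it was read 230, 249 and 245 times. The APPswe libraries were all lower than the control libraries and differed little among themselves, while the control libraries were spread, with control replicate 2 the lowest. Pdgfd fell from 34.0 ± 8.44 CPM to 13.5 ± 0.536 CPM (SD, n = 3 each), which is 2.52-fold lower. The log2 fold change was -1.33 (standard error 0.19, 95% interval -1.78 to -0.89, edgeR adjusted p = 0.00475). Without control replicate 2 it was -1.50 (95% interval -1.73 to -1.27, edgeR adjusted p = 1.02e-06). Within the styles of library name the difference was -1.34 and -1.32 on the log2 CPM scale.

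**Figure D2:**
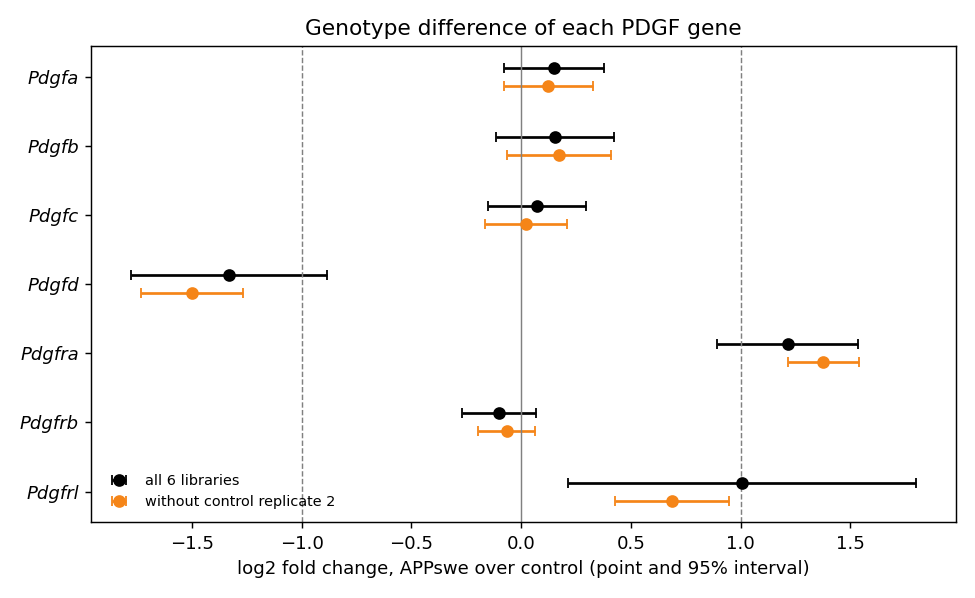
Log2 fold change of APPswe over control for each PDGF gene, with points for edgeR's estimate and bars for its 95% interval, from all 6 libraries (black) and without control replicate 2 (orange). Dashed lines mark the log2 fold change of 1 in either direction needed for a call, and Pdgfra (1.21) and Pdgfd (-1.33) are the genes beyond them that also pass the adjusted p with all libraries.

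Promoter sequences are shown for Pdgfra and Pdgfd, the members that were called, from 250 bases before to 50 bases after a RefSeq start site (GRCm38.p6, plus strand for both), and 4 of the 7 members had an entry. For both genes this start site lies inside the annotated gene, downstream of its outermost start. The Pdgfra window is chr5:75152001-75152300 and the Pdgfd window is chr9:6168236-6168535. Capitals mark matches, on either strand, to the TATA box letters TATAAA, the GC box letters GGGCGG, the CCAAT box, the AP-1 letters TGANTCA, the RUNX letters TGTGGT and the E-box letters CAGCTG. The match found overlaps no other motif.
Pdgfra: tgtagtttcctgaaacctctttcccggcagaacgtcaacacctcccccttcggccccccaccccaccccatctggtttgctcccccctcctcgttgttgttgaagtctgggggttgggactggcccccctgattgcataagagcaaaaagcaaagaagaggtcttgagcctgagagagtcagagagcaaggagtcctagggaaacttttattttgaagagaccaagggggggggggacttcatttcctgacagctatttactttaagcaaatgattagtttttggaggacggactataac
Pdgfd: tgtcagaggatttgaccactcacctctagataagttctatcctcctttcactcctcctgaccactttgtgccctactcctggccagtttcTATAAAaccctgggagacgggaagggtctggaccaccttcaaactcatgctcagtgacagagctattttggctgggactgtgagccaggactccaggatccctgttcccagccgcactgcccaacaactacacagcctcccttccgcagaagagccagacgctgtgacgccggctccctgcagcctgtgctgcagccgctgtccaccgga
The Pdgfra window held none of these letters, and the Pdgfd window held 1 match, TATAAA, starting 160 bases before that start site. The outermost annotated start of Pdgfd, at chr9:6168363, also lies inside this window, downstream of the match. Of the 32851 RefSeq windows of this length, 13.6% held the TATA box letters, 35.7% the GC box, 37.4% the CCAAT box, 7.81% the AP-1 letters, 16.8% the RUNX letters and 16.3% the E-box letters. The GC content was 51% for Pdgfra and 56.7% for Pdgfd, beside a median of 52.7% over all windows.

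The other ligand genes were not called. Pdgfa, which makes the A chain for the alpha receptor, was read 480, 471 and 508 times for control and 498, 556 and 588 times for APPswe. Its log2 fold change was 0.15 (95% interval -0.077 to 0.38, edgeR adjusted p = 0.296), with overlapping groups. Pdgfa shares 813 exonic bases with 6330403L08Rik on the opposite strand, whose reads may not be separable from its own. Pdgfb, which makes the B chain that binds both receptors, was read 961, 1023 and 992 times for control and 938, 1185 and 1235 times for APPswe. APPswe replicates 2 and 3 were above all control libraries and APPswe replicate 1 was below them. The log2 fold change was 0.15 (95% interval -0.12 to 0.42, edgeR adjusted p = 0.366), and the differences within library name styles had opposite signs, -0.10 with a hyphen and 0.27 without. Pdgfc, the latent ligand of the alpha receptor, was read 621, 563 and 621 times for control and 673, 592 and 661 times for APPswe. Its groups overlapped, with a log2 fold change of 0.073 (95% interval -0.15 to 0.30, edgeR adjusted p = 0.613).

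Ratios were also taken within the latent pair of ligands and within the convertase-processed pair, and the change in the first came with Pdgfd, since Pdgfc was not called. There were 1.18, 0.803 and 0.982 Pdgfd counts per Pdgfc count for control, and 0.342, 0.421 and 0.371 for APPswe. This ratio was lower by 1.37 on the log2 scale, without overlap (two-sided exact permutation p = 0.1, adjusted 0.2). The ratio of Pdgfb to Pdgfa counts lay between 1.95 and 2.17 in control and between 1.88 and 2.13 in APPswe libraries, with overlapping groups (two-sided exact permutation p = 1). In FPKM, Pdgfd made up 18.6 ± 1.05% of the 4 ligand genes in control and 6.96 ± 0.440% in APPswe libraries, and Pdgfb 37.6 ± 2.07% and 43.8 ± 3.29% (SD, n = 3 each). The summed FPKM of the 4 ligand genes overlapped between genotypes, with 63.0 to 71.3 for control and 64.4 to 73.7 for APPswe.

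**Figure D3:**
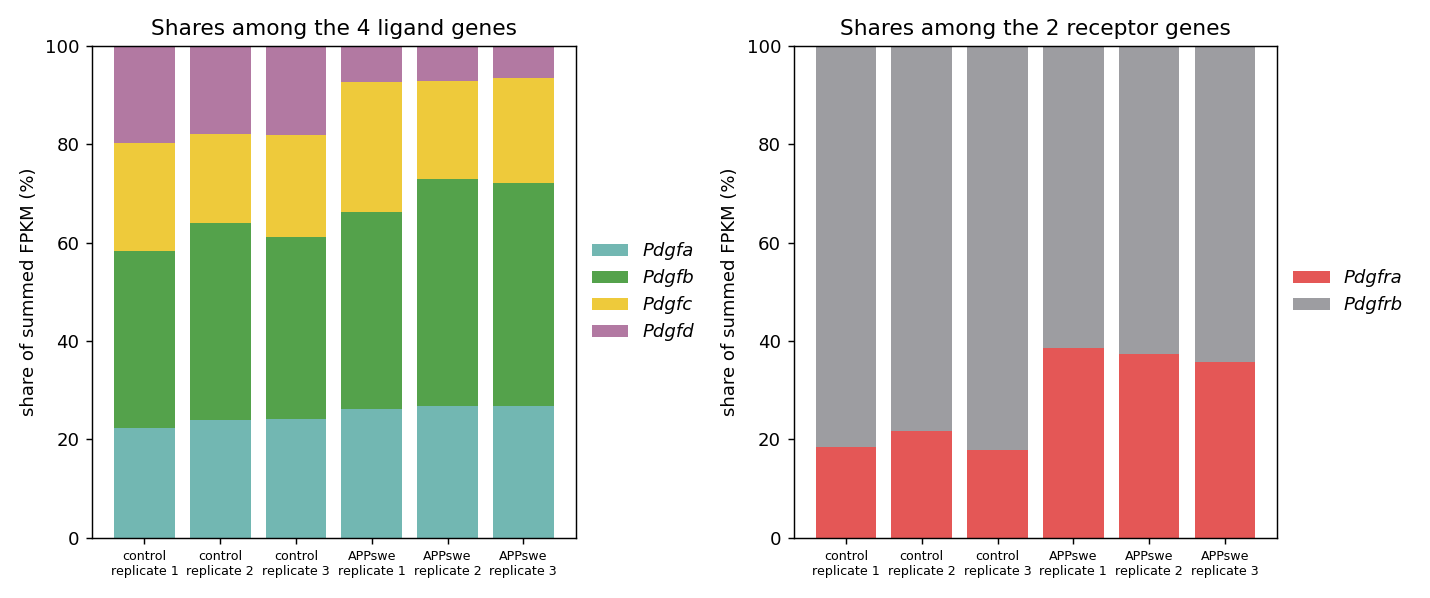
Share of each gene in the summed FPKM of the 4 ligand genes (left) and of the 2 receptor genes (right), with 1 stacked bar per library. Pdgfd holds between 17.9 and 19.8% of the ligand bars in control and between 6.47 and 7.33% in APPswe libraries, and Pdgfra between 17.8 and 21.7% and between 35.7 and 38.7% of the receptor bars.

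The order of the levels per length changed in its lower part. In control libraries the mean FPKM fell from Pdgfrb (48.3 ± 2.18) to Pdgfb (25.2 ± 0.481), Pdgfa (15.7 ± 0.583), Pdgfc (13.7 ± 2.08), Pdgfd (12.5 ± 1.47), Pdgfra (11.6 ± 2.13) and Pdgfrl (5.34 ± 2.34) (SD, n = 3 each). The ranges of neighbours from Pdgfa down to Pdgfra overlapped, so that part of the order is not resolved. In APPswe libraries Pdgfrb came first (47.3 ± 0.889), followed by Pdgfb (30.3 ± 3.99), Pdgfra (28.0 ± 1.62), Pdgfa (18.4 ± 1.45), Pdgfc (15.5 ± 1.65), Pdgfrl (11.3 ± 0.928) and Pdgfd (4.78 ± 0.0709) (SD, n = 3 each). There the ranges of Pdgfb and Pdgfra overlapped, as did those of Pdgfa and Pdgfc. By mean FPKM, Pdgfra was above 65.1% of all genes in the table in control and above 81.4% in APPswe libraries, and Pdgfd above 66.5% and 48.6%.

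**Figure D4:**
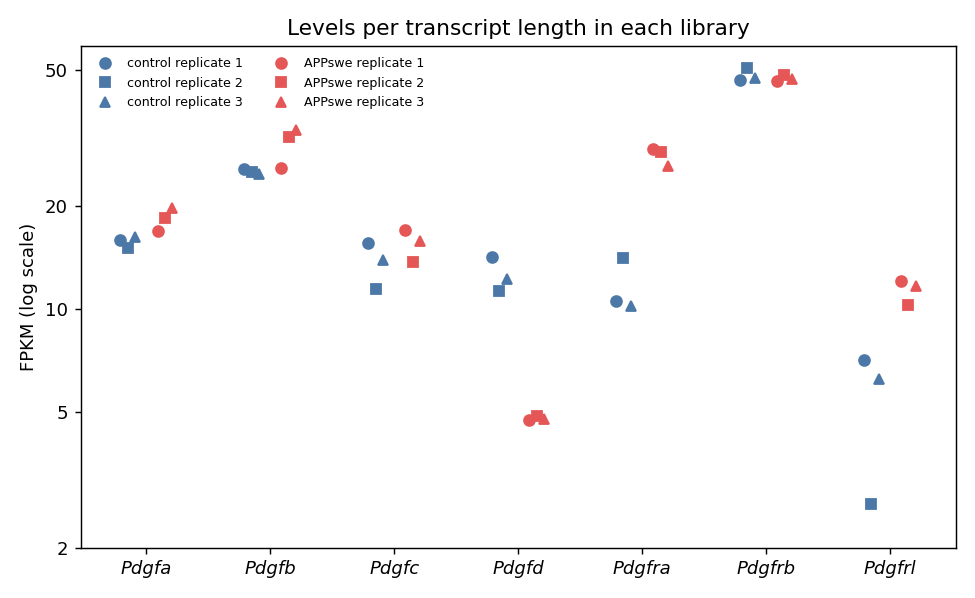
FPKM of each PDGF gene on a logarithmic axis, 1 point per library, with control in blue and APPswe in red and marker shapes for replicate numbers. Pdgfrb is highest in every library (46.4 to 50.8), Pdgfra lies between 10.2 and 14.1 in control and between 26.2 and 29.3 in APPswe libraries, and Pdgfd lies between 4.72 and 4.86 in the APPswe libraries.

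The number of reads behind 1 FPKM unit shows the length by which the authors divided, and for the latent ligands it differed between libraries. Relative to its mean over the 6 libraries, this length index of Pdgfd was 0.797 in control replicate 2 and between 0.988 and 1.07 in the others. That of Pdgfc was 1.11 in control replicate 2 and 0.933 in control replicate 1. The spread of Pdgfd between its highest and lowest library, 1.34-fold, was larger than that of 99.3% of the 10841 genes with enough reads, and that of Pdgfc, 1.19-fold, was larger than that of 97.1%. For Pdgfra and Pdgfrb the spread was 1.02-fold and 1.01-fold, near the median of 1.01-fold. Counts and FPKM of Pdgfd therefore differ most in control replicate 2, where 452 counts became 11.3 FPKM, while 610 counts became 12.2 FPKM in control replicate 3.

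Pdgfra lies on chromosome 5 (GRCm38.p6, chr5:75151322-75198206) next to the genes of related receptor tyrosine kinases, Kit (chr5:75574987-75656722) and Kdr (chr5:75932827-75979072), with no other protein-coding RefSeq gene in the 376.8 kb and 276.1 kb between them. Neither neighbour was called higher. Kit, the stem cell factor receptor, was read 54, 1 and 45 times for control and 7, 5 and 9 times for APPswe, too few to be tested with all libraries. Without control replicate 2 Kit was called lower (log2 fold change -2.83, edgeR adjusted p = 1.77e-05). In that fit Kit passed the filter on low counts only through control replicates 1 and 3, which favored a lower call in advance. Kdr, a VEGF receptor of endothelial cells, was called lower (log2 fold change -2.45, edgeR adjusted p = 0.00503), from 10.9, 25.5 and 12.6 CPM for control to 2.86, 2.90 and 3.20 CPM for APPswe. There were 21.4, 1584 and 25.7 Pdgfra counts per Kit count for control and 452, 631 and 315 for APPswe, with overlapping groups through control replicate 2 (two-sided exact permutation p = 0.4, adjusted 0.6). There were 6.14, 3.50 and 5.17 Pdgfra counts per Kdr count for control and 62.1, 60.7 and 49.7 for APPswe, without overlap (two-sided exact permutation p = 0.1, adjusted 0.2). Csf1r, the macrophage receptor gene 20.5 kb from Pdgfrb, was at 778, 1362 and 820 CPM in control and at 939, 935 and 937 CPM in APPswe libraries (log2 fold change -0.074, edgeR adjusted p = 0.832).

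Genes that act on PDGF ligands outside or on their way out of the cell included 1 called higher and 1 called lower of 13 tested (14 listed), with a median log2 fold change of 0.29. The shares over all genes tested, to be read beside this and the following lists, were 3.74% higher and 3.60% lower. Pcsk5, a proprotein convertase, rose by 2.37 on the log2 scale (edgeR adjusted p = 0.0192), with control libraries at 4.91, 1.07 and 5.64 CPM and APPswe libraries at 21.0, 19.7 and 19.6 CPM. St14, which encodes matriptase, a protease able to activate PDGF-D, had the opposite change, -2.24 on the log2 scale (edgeR adjusted p = 0.00253), with control libraries at 13.4, 7.76 and 14.4 CPM and APPswe libraries at 2.41, 2.56 and 2.53 CPM. Without control replicate 2 the counts were 1 higher and 2 lower, the addition being Serpine2, a protease inhibitor named after its values were seen.

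None of the 32 genes of the signal relay behind the receptors (among them adaptors, PI3 kinase, Ras and Src family genes) was called by edgeR. An unadjusted p under 0.05 was found for 15 of them, beside 5017 of the 13484 genes tested. DESeq2 called 1 of them. The median of this list was -0.096. Of 12 tested genes that shut the receptors off (13 listed), 1 was called higher and none lower. It was Socs1, an inhibitor of cytokine signaling that stood at 1.91, 2.53 and 3.27 CPM for control and 3.53, 6.96 and 6.41 CPM for APPswe and differed by 1.13 on the log2 scale (edgeR adjusted p = 0.0489).

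Of 30 genes that respond to growth factors, all tested, 5 were called higher, beside 3.74% of all genes tested, and 2 lower, beside 3.60%. The median log2 fold change of this list was 0.094. Has2, a hyaluronan synthase, had the largest change, 2.83 on the log2 scale (edgeR adjusted p = 0.000514), with 10.6, 17.4 and 11.9 CPM for control and 97.8, 95.1 and 90.7 CPM for APPswe. The immediate-early genes Egr3 and Fos were also called, Egr3 at 1.39 (edgeR adjusted p = 0.00286) and Fos at 1.34 (edgeR adjusted p = 0.0119) on the log2 scale. Egr1 and Egr2, named after their values were seen, were also called higher, at 1.23 and 1.17, and Egr2 lost its call without control replicate 2, at 0.95. The chemokine gene Ccl2, which PDGF is known to induce, differed by -1.37 on the log2 scale (edgeR adjusted p = 0.000296), with 175, 178 and 164 CPM for control and 64.3, 67.0 and 68.3 CPM for APPswe. Dusp4, a MAP kinase phosphatase also named after its values were seen, was lower, at -1.29 (edgeR adjusted p = 0.00438). These genes answer to many stimuli, and their relation to the PDGF genes was not tested.

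**Figure D5:**
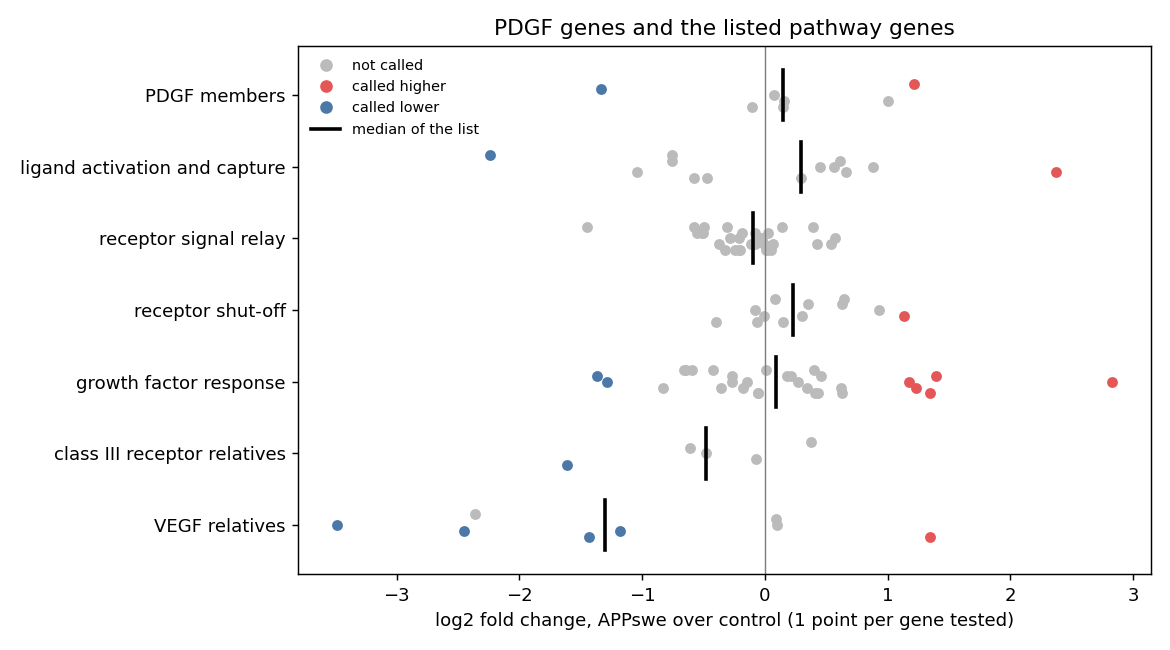
Log2 fold change of APPswe over control, 1 point per gene tested, for the PDGF genes and 6 lists of related genes, with red for genes called higher, blue for genes called lower and a black bar at the median of each list. The signal relay list has a median of -0.096 and no called gene, and the VEGF relatives have a median of -1.31 with 4 of 8 genes called lower.

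The closest relatives of the PDGF system are the other class III receptor kinases with their ligands, and the VEGF family, whose ligands share the fold of the PDGF chains. Of 5 class III relatives tested (7 listed), Kitl, the stem cell factor gene, was the 1 called, lower by a log2 value of -1.61 (edgeR adjusted p = 0.000851), and Flt3 was at 0 counts in every library. Of 8 VEGF genes, 4 were called lower, beside 3.60% of all genes tested, and 1 higher, beside 3.74%. Without control replicate 2 they were 5 and 1, beside 11.5% of all genes in either direction. Flt4 had the largest change, at -3.49 (edgeR adjusted p = 0.000600), and Flt1 was at -1.43 (edgeR adjusted p = 0.0130), while Vegfa was at 1.35 (edgeR adjusted p = 0.000524). The fourth lower gene besides Flt4, Kdr and Flt1 was Vegfb, named after its values were seen. Whether these lists differ from the PDGF genes was not tested.

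Markers of cell types in which PDGF receptors are known to be found moved in different directions. Beside these counts and those of the next paragraph, 3.74% of all genes tested were called higher and 3.60% lower. Without control replicate 2 the share was 11.5% in either direction. Of 15 fibroblast and mesenchymal progenitor markers tested (16 listed), 2 were called higher and 1 lower, and their summed level was 1877 CPM (control replicate 2) to 3652 CPM for control and 3919 to 4205 CPM for APPswe. Postn (means 494 and 1419 CPM) made up much of the difference between these sums, and Dcn (means 350 and 234 CPM) went the other way. The sums therefore do not stand for the list as a whole. Of 12 mural cell markers tested (15 listed), 3 were called higher and 1 lower, and Higd1b, a pericyte marker, was at 0 counts in every library. Des, called higher, is also on the skeletal muscle list below. The mural sums were 1839.5 to 2711 CPM for control (the highest in control replicate 2) and 2803 to 2919 CPM for APPswe. Acta2 (means 947 and 1644 CPM) and Tagln (422 and 785 CPM) made up most of them. Postn, Des, Acta2 and Tagln were named after their values were seen. Leaving out control replicate 2, the mural list had 5 called higher and 2 lower, and its median log2 fold change turned from 0.27 to -0.10. The fibroblast list then had 2 called higher and 2 lower, Dcn being added, and its median turned from 0.20 to -0.069. Of 10 endothelial markers tested (12 listed), 3 were called lower, or 10 of 12 without control replicate 2, with sums of 243 to 387 CPM for control and 77.8 to 86.3 CPM for APPswe. The lowest control sum was that of control replicate 2, where 5 of the 12 were at or under the floor, against 0 in control replicates 1 and 3. The markers tested only without it passed the filter on low counts through control replicates 1 and 3, which favored a lower call.

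Markers of cells outside the osteoblast lineage moved as well. All 9 skeletal muscle markers tested (12 listed) were called higher, with sums of at most 11.97 CPM for control and at least 169 CPM for APPswe. Of the 12, 9, 4 and 7 were at or under the floor in the control libraries, and 1, 2 and 3 in the APPswe libraries. Tested markers that low in control passed the filter on low counts through the APPswe libraries, which favored a higher call in advance. This holds for some of the osteoclast and platelet markers below as well. Of 9 osteoclast markers tested (10 listed) 5 were called higher, with sums from 181 to 331 CPM and from 742 to 753 CPM, and of 4 platelet markers tested (7 listed) 3 were called higher, with sums from 15.6 to 31.9 CPM and from 224 to 239 CPM. In the fit that omits control replicate 2, 6 osteoclast markers were called higher and 1 lower, and the muscle and platelet counts were again 9 and 3 higher. Macrophage markers were abundant in both genotypes, with sums of 18252 to 25041 CPM for control and 12642 to 13609 CPM for APPswe. Of the 13 macrophage markers 1 was called higher and 1 lower. Without control replicate 2 neither kept its call, and a different marker was called lower. The median log2 fold change of this list was -0.74, and -0.52 without control replicate 2. At an adjusted p alone, 8 of the 13 were lower and 1 was higher, beside 1622 lower and 1414 higher of the 13484 genes tested. For 9 markers the highest APPswe value was under the lowest control value, and for 1 marker the order was reversed. Among the 13484 genes tested, the first order held for 2991 and the reverse for 3071. The osteoblast markers had sums of 17573 to 18838 CPM for control and 11628 to 12258 CPM for APPswe, with 1 of 12 tested (14 listed) called higher (Sp7) and 1 lower (Spp1). Spp1 alone (means 8171 and 3569 CPM) made up most of the difference between these sums. When control replicate 2 was left out, 4 osteoblast markers were called lower (Dmp1, Bglap2, Phex and Spp1) and 1 higher. The part of these cell types in the differences of Pdgfra and Pdgfd was not tested.

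The genes whose log2 CPM followed each member most closely over the 6 libraries were taken from 12155 candidates and are given as a description. The libraries fall into 2 genotypes, so high coefficients are common among genes that differ between them. For Pdgfra these were Dync2h1 (Pearson r = 0.9995), Sept11 (0.998) and Ccr1 (0.998). Pdgfd was followed by Fcna (0.998), Map2k1 (0.997) and Mcoln2 (0.997), and Pdgfrl by Ms4a4d (0.999), Cd38 (0.998) and Srp9 (0.998). For Pdgfrb they were Tbl3 (0.996), Axin1 (0.995) and Mvd (0.994). The ligands with no call were followed less closely by B4galt2, Miip and Krtcap2 for Pdgfa (0.991, 0.988 and 0.982), by Wrnip1, Ing5 and B9d2 for Pdgfb (0.967, 0.966 and 0.961), and by Scnm1, 2410004B18Rik and Fam98b for Pdgfc (0.983, 0.981 and 0.973).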

How the data were processed

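RNA from sorted tdTomato-positive osteoblasts was sequenced on the DNBseq platform after library preparation with a SMARTER mRNA kit. The submitters' processing notes name the build GRCm38, and the aligner and counting tool are not given in the sources used here. The authors deposited raw read counts per gene, without normalization, and FPKM values, which they computed and rounded before deposit. FPKM cells are blank in 397 genes for libraries named with a hyphen and in 716 for the others, and were read as 0. The deposited table also holds the authors' log2 fold changes and p-values, which were not used.

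The count analysis used edgeR 4.0.16 under R 4.3.3, with filterByExpr, TMM normalization and the quasi-likelihood test without a covariate, with Benjamini-Hochberg adjustment over 13484 genes. The standard error was the log2 fold change over the square root of F. CPM are counts on TMM-scaled library sizes. Ratios were compared with two-sided exact permutation tests. Alternatives used DESeq2 1.42.0, limma 3.58.1 on log2(FPKM + 1) or log2(FPKM + 0.1), other filters and scalings, covariates, and each library left out. The tests were tested on simulated data. No pair of libraries was alike within sampling noise, so none was merged. The chi-square per degree of freedom between 2 libraries, near 1 for sampling noise alone, was lowest for APPswe replicates 2 and 3, at 1.58. It was 6.20 for control replicates 1 and 3. Control replicate 2 stood at 75.8 from control replicate 1 and at 80.4 from control replicate 3. Pairs of a control and an APPswe library lay between 85.8 and 109, so the control replicates were not equally alike.

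The members and gene lists were chosen with earlier results of these data known. The genes named are the members, up to 4 called genes with the largest change from each pathway list, the 3 genes most correlated with each member among those whose log2 CPM averaged 1 or more, App, Bglap and the Y-linked genes. Names outside this rule are marked or are Kit, Csf1r, Flt3, Sp7, Spp1, Dmp1, Bglap2, Phex, Dcn and Higd1b, which were chosen after their values were seen. Of the listed genes, 1 is not reported here by name.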

Additional observations from a re-analysis of the deposited data

How the results depend on the processing

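Pdgfra and Pdgfd kept their calls in all 16 alternative fits, with log2 fold changes from 1.13 to 1.38 and from -1.50 to -1.15. Their adjusted p-values reached 0.0194 and 0.0340. With DESeq2 and with limma on log2(FPKM + 1), 2 members were called higher, the addition being Pdgfrl, with adjusted p-values of 0.0192 and 0.0458. Pdgfrl ranged from 0.69 to 1.26 over all alternatives, with adjusted p-values up to 0.194. Pdgfa, Pdgfb, Pdgfc and Pdgfrb kept their sign and stayed uncalled in all 16. The log2 difference in the ratio of Pdgfb to Pdgfa, -0.0034 with all libraries, changed sign with FPKM (0.038) and lay between -0.037 and 0.053 with single libraries left out, and that of Pdgfra to Pdgfrb lay between 1.26 and 1.44.

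Over all genes, 504 were called higher and 486 lower. With at least 10 counts in every library, 320 were higher. Limma called 324 higher and 187 lower on log2(FPKM + 1), 305 and 170 without a filter, and 287 lower on log2(FPKM + 0.1), so that 63.4%, 64.2% and 63.3% of its calls were higher, beside 50.9%. At an adjusted p alone, 1414 were higher and 1622 lower. With single libraries left out, the numbers lay between 281 and 670 higher and between 230 and 905 lower, the extremes being those without APPswe replicate 3 and without control replicate 2. They were also fewer by over 1.5 times without APPswe replicate 1 (317 and 242) and replicate 2 (291 and 237). Among the pathway lists, 8 genes were called higher and 8 lower, between 4 and 8 and between 7 and 11 with single libraries left out, the 4 being without APPswe replicate 2 or 3. Over all genes tested 3.74% were called higher and 3.60% lower with all libraries, and these numbers also moved with single libraries left out. The cause was not tested. With the replicate number as a block, 384 genes were higher and 324 lower, and 1 member and 8 pathway genes were called in each direction. Deviations from the group mean correlated between same-numbered libraries at 0.070, -0.034 and 0.14, and not every library correlated best with its own number. Control replicate 3 and APPswe replicate 2, whose library names share L3, correlated at 0.10. Control replicate 2 weighs heavily in the control means, so this check cannot decide whether libraries were paired.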
